A study of Mus musculus with 12 samples.

Results

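The alpha chains described here use a V segment of the TRAV3 family, the J segment TRAJ17, or both, among the T cell receptor alpha (TRA) rearrangements of CD8+ T cells sorted with an Rpl18 tetramer. Members were the entries whose V name, without its allele and the D or N letter of a duplicated copy, begins with TRAV3, or whose J name is TRAJ17. They made up 1176 of the 10521 entries of the TRA table and 85668 of its 731688 reads. Of these, 856 entries with 71685 reads were productive, meaning in frame with no stop codon or unread base, which is 11.5% of all 623850 productive reads. They formed 751 of 6563 clonotypes, where entries with the same CDR3 bases, V segment and J segment count as 1 clonotype. The TRAV3 family held 68089 productive reads, TRAJ17 held 51750, and the combination of both held 48154. The segments were picked because their mean share over the libraries was high, so their levels are given as a description.

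The cells were sorted from MC38 tumors, grown from a mouse colon carcinoma line, and from tumor draining lymph nodes (TDLN) on day 10 after injection. The 12 libraries form 4 groups of 3, tumor and TDLN of WT and of KO mice, where KO mice lack TrIP, a membrane protein that restrains PI3K signalling, in CD8+ cells. Mice of every group carried the tumor, and all cells passed the same tetramer sort. The labels do not name the Cre line behind the deletion, and they do not say whether libraries came from separate or pooled mice, so tests measure the spread between libraries. The labelled cell type and the deletion were not checked, because no expression values were analysed here. A library held between 15828 and 94872 productive TRA reads, with a median of 48625.5. Library names carry a letter that 1 tumor and 1 TDLN library have in common, and the labels do not say what it stands for.

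An alpha chain gene is assembled in the thymus by joining 1 V segment to 1 J segment. Bases are trimmed from both ends and others are added between them, and the CDR3 loop that spans this junction is the part of the chain that usually lies closest to the bound peptide. The mouse alpha locus holds duplicated copies of many V segments, and the members of the TRAV3 family are such near-identical copies. Before selection by antigen, TRAV and TRAJ segments combine in very many ways, and T cells selected on 1 antigen often share segments and CDR3 features.

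The sequences below carry the main pattern and are shown because they differ at few junction bases. The first pair is the end of TRAV3 and the start of TRAJ17, taken as the leading base at each position over the rearrangements of the table, since no germline sequence was used here. In the CDR3 sequences, capitals mark the junction, which runs from the first base that departs from the V end to the last base before the match to TRAJ17 begins, so single bases in it can still equal an end. Forms of the second group, defined further down by CDR3 similarity, are named by their residue at position 5 of the CDR3. All lie on chromosome 14, and all are written 5′ to 3′ from the conserved cysteine codon to the end of the CDR3.
TRAV3 end: tgcgcagtcagtgagg
TRAJ17 start: taacagtgcagggaacaagctaactttt
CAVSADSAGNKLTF: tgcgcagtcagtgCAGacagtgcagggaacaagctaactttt
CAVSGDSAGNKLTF, first encoding: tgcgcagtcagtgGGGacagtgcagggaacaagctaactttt
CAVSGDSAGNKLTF, second encoding: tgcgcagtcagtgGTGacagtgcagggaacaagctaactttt
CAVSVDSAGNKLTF: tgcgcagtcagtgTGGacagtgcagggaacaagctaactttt
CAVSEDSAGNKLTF: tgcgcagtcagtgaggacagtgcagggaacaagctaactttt
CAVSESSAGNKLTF: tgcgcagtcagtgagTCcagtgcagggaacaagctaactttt
TRAV3 with TRAJ17, threonine form of the second group: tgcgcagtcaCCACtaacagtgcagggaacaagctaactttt
TRAV3 with TRAJ17, leucine form of the second group: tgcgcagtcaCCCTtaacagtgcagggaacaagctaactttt
TRAV3 with TRAJ17, alanine form of the second group: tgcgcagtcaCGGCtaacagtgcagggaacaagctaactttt

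A second set has TRAV3 with other J segments and is shown because it holds the leading clonotypes of the J partners named below, TRAJ21, TRAJ39, TRAJ30 and TRAJ12. The last sequence joins TRAJ17 to a TRAV6 segment. No junction was marked in these, because ends were derived only for TRAV3 and TRAJ17.
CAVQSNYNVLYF, TRAV3-3 with TRAJ21: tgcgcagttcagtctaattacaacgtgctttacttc
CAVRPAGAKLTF, TRAV3-3 with TRAJ39: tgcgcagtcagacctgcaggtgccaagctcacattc
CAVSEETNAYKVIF, TRAV3-3 with TRAJ30, WT TDLN 4: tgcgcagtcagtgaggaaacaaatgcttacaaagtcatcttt
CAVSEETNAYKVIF, TRAV3-3 with TRAJ30, WT TDLN 3: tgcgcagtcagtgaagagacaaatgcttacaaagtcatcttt
TRAV3-3 with TRAJ12: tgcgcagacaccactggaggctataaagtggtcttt
TRAV6-7 with TRAJ17: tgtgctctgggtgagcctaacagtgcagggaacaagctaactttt

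Clonotypes were shared between libraries of different letters, which bears on every value that follows. Of the 751 member clonotypes, 66 (8.79%) were found under 2 or more letters, and they held 64.0% of the member reads. Among all other clonotypes the shares were 7.67% of clonotypes and 81.3% of reads. All counts of sharing in this paragraph include single reads and near copies of large clonotypes. The 6 pairs of libraries with the same letter shared 3 member clonotypes in all, and no clonotype had 10 reads in both libraries of such a pair. The 60 pairs with different letters shared 102, and 10 of these pairs had a clonotype with 10 reads in both. Whether shared clonotypes arose separately or were carried between libraries was not tested. The authors' run log marks 4 libraries as timed out, which are numbers 1 and 3 of WT TDLN and numbers 1 and 2 of KO TDLN.

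TRAV3 chains were most abundant in the lymph node libraries of KO mice, and each group held a wide range. In KO TDLN the TRAV3 family took 32.8%, 37.3% and 6.29% of productive TRA reads in libraries 1, 2 and 3. In WT TDLN it took 3.62%, 19.1% and 3.38% in libraries 1, 3 and 4. Thus 2 of the 3 KO libraries lay above all WT TDLN libraries, and the third lay within their range. In WT tumor the share was 0.104%, 18.7% and 3.71% in libraries 2, 3 and 4, and in KO tumor it was 0.00423%, 2.32% and 3.75% in libraries 1, 2 and 3. The group means were 25.5% ± 16.8 for KO TDLN, 8.70% ± 9.01 for WT TDLN, 7.50% ± 9.85 for WT tumor and 2.02% ± 1.89 for KO tumor (SD, n = 3 each). Groups next to each other in this order overlapped in range. In bulk sequencing, fewer cells of a clone and less receptor RNA per cell cannot be told apart.

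TRAJ17 was highest in the same 3 libraries as TRAV3, KO TDLN 2, KO TDLN 1 and WT TDLN 3. Its share was 31.5%, 41.3% and 0.0549% in KO TDLN 1, 2 and 3, and 0.328%, 13.3% and 0.505% in WT TDLN 1, 3 and 4. It was 0.0748%, 2.07% and 3.71% in WT tumor 2, 3 and 4. In KO tumor 2 and 3 it was 2.32% and 2.84%. KO tumor 1 had no TRAJ17 read among its 23633 productive reads, which allows a share of up to 0.0127%. Its 5 TRAJ17 entries were all not productive, at 0.138% of its TRA reads. KO TDLN 3 therefore had abundant TRAV3 chains with almost no TRAJ17. The 3 libraries with over 10% of TRAJ17 all came from TDLN and all carried the timed-out mark. Among TDLN libraries, the 4 with the mark ranged from 0.328% to 41.3% and the 2 without it from 0.0549% to 0.505%. The part of the mark in these levels was not tested. Counting error was small against these differences, as the 95% Wilson interval of the highest TRAJ17 share, in KO TDLN 2, was 40.9% to 41.6%. Reads are not independent molecules, so intervals and limits cover counting error only.

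**Figure D1:**
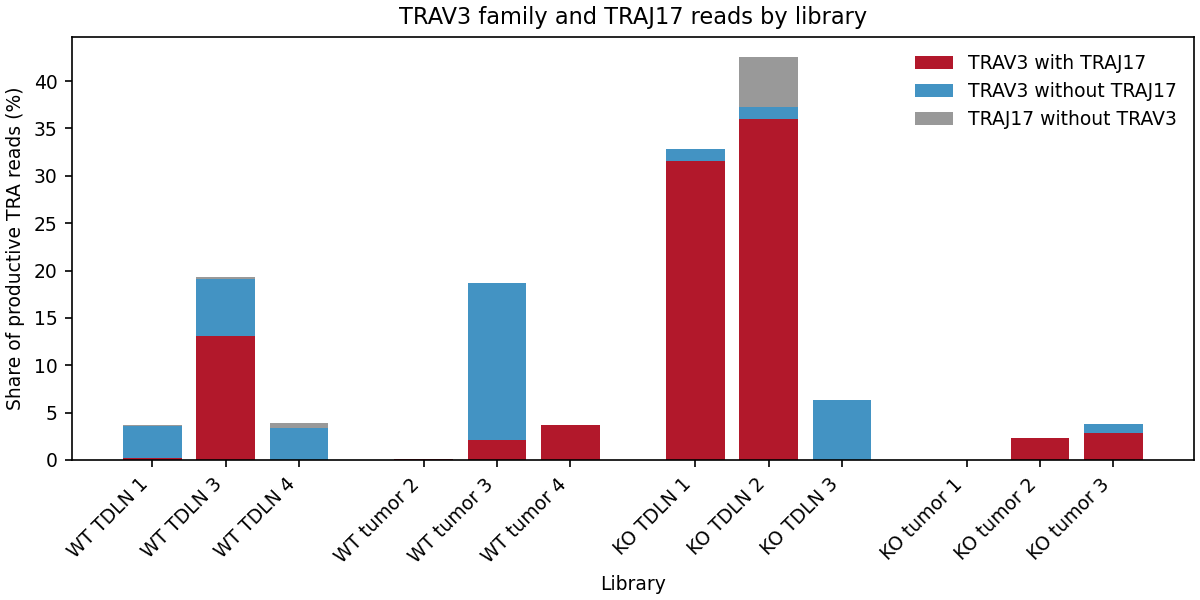
Share of productive TRA reads (%) in each of the 12 libraries, stacked by TRAV3 with TRAJ17, TRAV3 with another J segment, and TRAJ17 with another V segment. KO TDLN 1 and KO TDLN 2 stand highest, with TRAJ17 beside most of their TRAV3 reads, while WT tumor 3 and KO TDLN 3 hold TRAV3 mainly with other J segments.

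Within the family, the copy named TRAV3N-3 held 92.8% of all TRAV3 reads, and TRAV3-3 held 3.95%. TRAV3-4 held 1.87%, TRAV3-1 held 1.39%, and TRAV3D-3 had 1 read. The copies of TRAV3-3 were therefore pooled under that name. Identical CDR3 nucleotide sequences were given several TRAV3 names in 22 of 754 combinations of sequence and library, and 1.42% of productive TRAV3 reads lay outside the leading name. The threonine form printed above, for example, stood in WT tumor 4 at 2.91% under TRAV3-3 and at 0.756% under TRAV3-1. The small TRAV3-1 and TRAV3-4 shares are uncertain for this reason.

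Members with TRAV3 and TRAJ17 together were more frequent than the product of the 2 segment shares. The combination took 31.5% of KO TDLN 1 and 36.0% of KO TDLN 2, where the product of the shares was 10.3% and 15.4%. It took 13.0% of WT TDLN 3, 5.13 times the product. In WT tumor 2, 3 and 4 it took 0.0738%, 2.07% and 3.71%, and in KO tumor 2 and 3 it took 2.32% and 2.84%. In these tumor libraries nearly every TRAJ17 read had a TRAV3 segment, 98.6% in WT tumor 2 and 99.9% to 100% in the other 4. WT TDLN 1 held 0.256%, KO TDLN 3 held 0.00499% from 2 reads, and WT TDLN 4 and KO tumor 1 held none.

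The observed share was above the product in 10 libraries, by 1.44 to 945 times, and below it in WT TDLN 4, where no read had both. In 100% of the TRAV3 reads of WT tumor 4 and of KO tumor 2, TRAJ17 was the partner, against 11.1% in WT tumor 3 and 0.0793% in KO TDLN 3. Because large clones set shares of reads, clonotypes were also counted once per library, leaving out single reads and 1-base variants of a clonotype 100 times larger. Counted so, 39 of 109 TRAV3 clonotypes (35.8%) used TRAJ17, against 1.28% of clonotypes with another V segment. The product of the segment counts gave 5.26 such clonotypes over the 12 libraries. In this count a CDR3 with several TRAV3 names counts under each name, and near copies less than 100 times smaller stay in. KO TDLN 1 gave 12 of the 39, and the 39 rest on 17 different nucleotide sequences over all libraries. Both segments were chosen with these values known, and no test of the combination was made. A large clone can put any combination above its product. In WT tumor 3, for example, TRAV3 with TRAJ21 took 16.4%, where TRAV3 took 18.7% and TRAJ21 took 16.9%. Whether the excess is particular to TRAV3 with TRAJ17 was not tested.

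**Figure D2:**
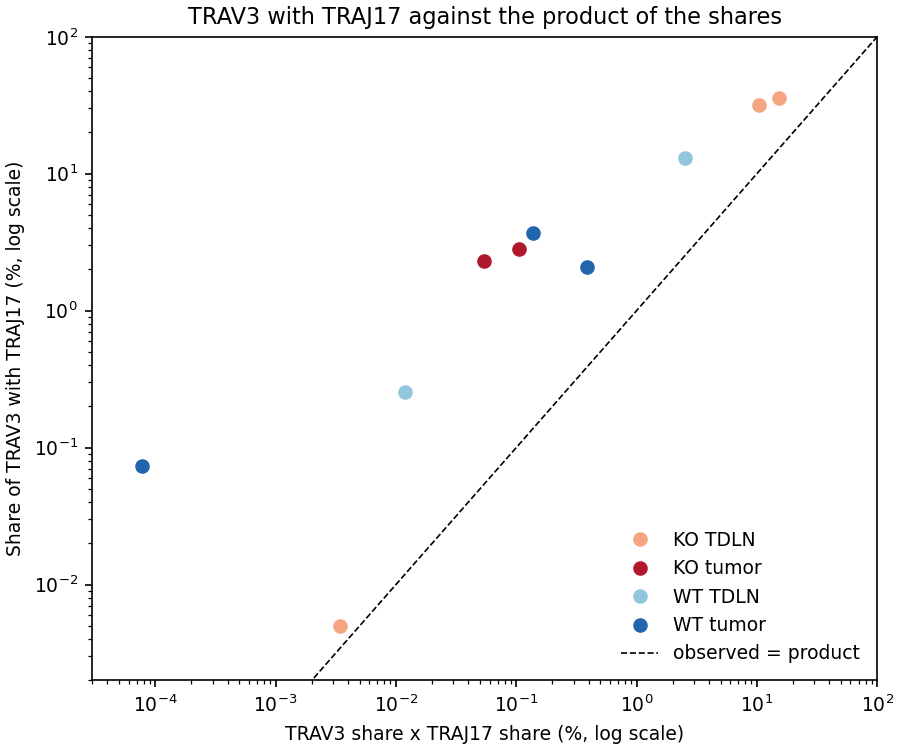
Observed share of TRAV3 with TRAJ17 against the product of the TRAV3 and TRAJ17 shares (both in % of productive TRA reads, log scales), 1 point for each of the 10 libraries with reads of the combination, coloured by group. All points lie above the dashed line of equality, and KO TDLN 3 lies nearest to it with a ratio of 1.44.

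TRAV3 was joined to 27 different named J segments and TRAJ17 to 16 V segments, but a few partners held most reads. Beside TRAV3, TRAJ17 held 70.7% of reads, TRAJ21 17.01%, TRAJ39 3.76%, TRAJ12 1.72% and TRAJ30 1.28%. TRAJ21 was high in WT tumor 3 (16.4% of productive reads) and KO TDLN 3 (5.26%), and at 0.340% or less elsewhere. TRAJ39 beside TRAV3 was found in WT TDLN 1 alone, at 3.11%. TRAJ30 stood at 2.81% in WT TDLN 4, and TRAJ12 at 1.52% in WT TDLN 3 and 0.894% in KO tumor 3. Each minor partner was thus high in only 1 or 2 libraries, whereas TRAJ17 passed 2% in 7.

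Beside TRAJ17, TRAV3-3 held 91.0% of reads, TRAV6-7 5.13%, TRAV3-1 1.47%, TRAV6-6 1.27% and TRAV3-4 0.551%. The TRAV6 partners came almost wholly from KO TDLN 2, where TRAV6-7 with TRAJ17 reached 4.20% and TRAV6-6 with TRAJ17 reached 1.01%. In that library both names were attached to the CDR3 printed last in the second set, which was called TRAV6-7 in 2620 reads and TRAV6-6 in 630.

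**Figure D3:**
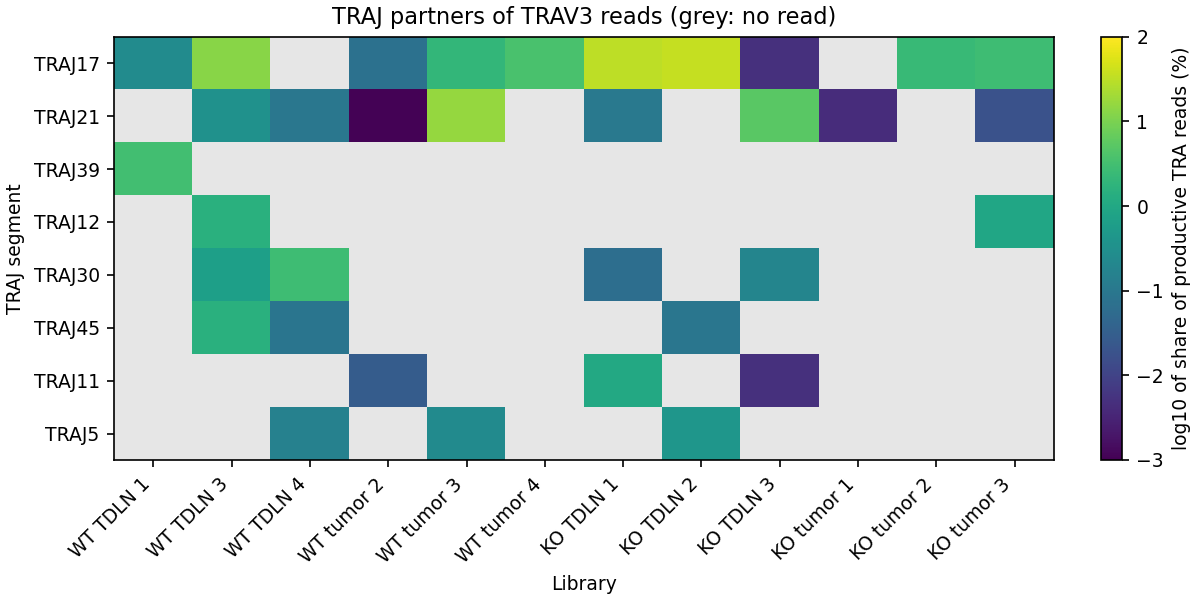
Share of productive TRA reads (log10 of %, colour) of TRAV3 with each of its 8 most frequent J partners in each library, with grey for no read. TRAJ17 is found in 10 of the 12 libraries, and TRAJ21 is high in WT tumor 3 and KO TDLN 3.

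Chains with both segments had nearly uniform CDR3 loops. Of their 415 clonotypes, 413 were 14 amino acids long, and these held 48152 of 48154 reads. Listed by library, 281 of 465 such clonotypes (60.4%) were near-copy variants of a clonotype at least 100 times larger. The count of 413 is therefore mostly not independent evidence of a shared length. Among TRAV3 chains with another J segment 10.4% of reads were 14 long, among TRAJ17 chains with another V segment 2.28%, and among all other chains 28.0%. After the filter on single reads and variants, all 27 remaining clonotypes with both segments were 14 long. These 27 rest on 17 different nucleotide sequences, because a CDR3 with several TRAV3 names counts under each name. The 59 TRAV3 clonotypes with another J ranged from 10 to 16, and the 13 TRAJ17 clonotypes with another V from 13 to 15. Of these, 23.7% and 23.1% were 14 long, against 25.9% of the filtered clonotypes with neither segment. By clonotype these classes were thus nearly alike, and large clones set their shares of reads given above.

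CDR3 length was not used to choose the members and was tested over libraries. TRAV3 clonotypes were shorter than the others of the same library, with a mean of 13.8 ± 0.438 against 14.3 ± 0.295 amino acids (SD, n = 10 libraries with at least 3 clonotypes of each class). The difference of -0.568 ± 0.472 amino acids was negative in 9 of the 10 libraries (exact two-sided sign-flip permutation test, p = 0.00391, 0.0156 after Benjamini-Hochberg adjustment over 4 such tests). WT TDLN 4 was the exception, at 14.1 in both classes. TRAJ17 clonotypes averaged 14.1 ± 0.276 against 14.2 ± 0.187 (n = 7), a difference of -0.109 ± 0.333 that was not past the threshold (exact p = 0.375, adjusted p = 0.627). Weighted by reads, the TRAJ17 difference was -0.801 (exact p = 0.0156). The libraries share clonotypes and are not fully independent. With shared clonotypes counted once, TRAV3 clonotypes remained shorter, and p over all alternatives ran from 0.000977 to 0.00781.

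**Figure D4:**
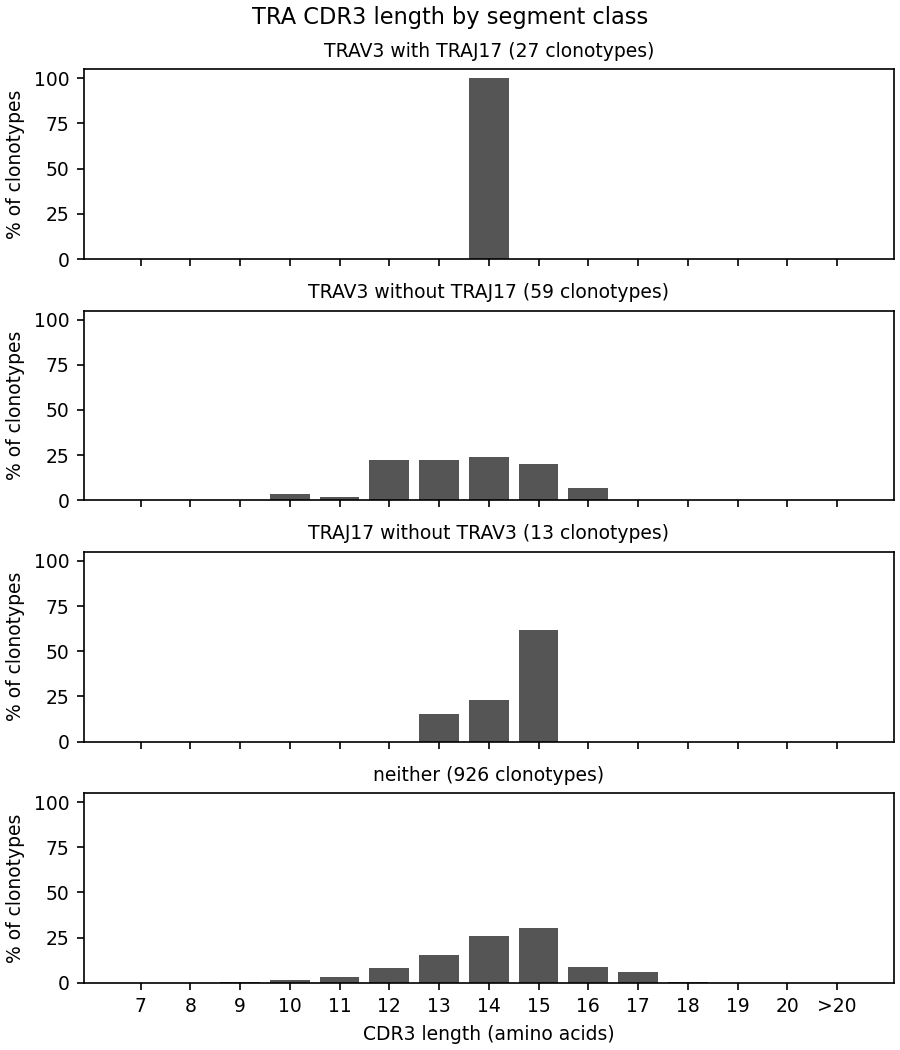
CDR3 length in amino acids of clonotypes with 2 or more reads that are not 1-base variants, each counted once over the 12 libraries, as % of the clonotypes of each class. All 27 clonotypes with TRAV3 and TRAJ17 are 14 long, while the other 3 classes spread over several lengths. The 27 rest on 17 different nucleotide sequences, as a CDR3 with several TRAV3 names counts under each.

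The 14 different CDR3 proteins of these filtered clonotypes varied by reads almost only in the middle of the loop. By reads, the start CAV and the stretch SAGNKLTF after the junction were nearly invariant, and 8 of the 14 sequences, with 99.97% of the reads, had exactly this frame around 3 variable residues. Position 5 held 6 different residues, position 6 held D, S or N, and position 4 held S or T. Position 14 held 4 residues, but F had 99.99% of its reads, and the 6 proteins outside the frame held the small remainder. The residues at positions 4 and 6 went together: all 3 sequences of this frame with T at position 4 had N at position 6, and the 5 with S had D in 4 cases and S in 1. Among the 17 different nucleotide sequences, a median of 13 bases matched the V end and 26 the start of TRAJ17, which left a median of 3 junction bases. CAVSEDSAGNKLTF had 0, since its bases are the derived V end followed directly by the derived TRAJ17 sequence. These counts depend on the derived ends, whose outermost bases rest on few rearrangements. The TRAV3 end was matched in full by 9 of 140 rearrangements and the TRAJ17 start by 7 of 32. The highest number of junction bases was 34. A base that departs early from either end moves all bases inward of it into the junction, so this value need not count added bases.

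Joining sequences of 1 length that differ at 1 residue gave 31 groups from 37 member CDR3 proteins at 0.1% or more of a library. Only 2 groups held more than 1 sequence, and both consist of TRAV3 with TRAJ17. The first has 5 proteins with S at position 4, and the second has 3 with T at position 4 and N at position 6. Values below are for all encodings of a protein summed.

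The first group took 35.6% of KO TDLN 2, 30.0% of KO TDLN 1 and 12.8% of WT TDLN 3. It took 2.05% of WT tumor 3, 2.30% of KO tumor 2 and 2.26% of KO tumor 3, and at most 0.0717% of each of the other 6 libraries. Its leading protein differed between these libraries, with 4 leaders in the 6. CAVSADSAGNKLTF made up 35.5% of KO TDLN 2, 2.67% of KO TDLN 1 and 2.05% of WT tumor 3. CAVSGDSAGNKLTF made up 26.8% of KO TDLN 1 and 0.0696% of WT tumor 2, with 0.00499% or less in any other library. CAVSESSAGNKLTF was found in WT TDLN 3 alone, at 12.8%, while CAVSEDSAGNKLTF stood at 2.30% in KO tumor 2 and 2.26% in KO tumor 3. Tumor and TDLN libraries of 1 letter did not share their leading member of the group.

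The nucleotide sequences separate some of these shared proteins. With 1-base variants left out, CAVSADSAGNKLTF had the same bases in every library with at least 2 reads of it, with 22239 reads in KO TDLN 2, 1159 in WT tumor 3 and 1071 in KO TDLN 1, which carry 3 different letters. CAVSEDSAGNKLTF likewise had 1 encoding, with 937 reads in KO tumor 2 and 1095 in KO tumor 3. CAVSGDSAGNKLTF had 2 encodings that were not such variants in at least 1 library: the first had 10597 reads in KO TDLN 1, and the second had 78 there and 64 in WT tumor 2, where the first was not read. In KO TDLN 1 the second lies 1 base from the first and is 133 times smaller under the name TRAV3-3 (10401 and 78 reads), so its reads there meet the definition of a 1-base variant. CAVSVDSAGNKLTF also lies 1 base from the first encoding and, with 217 reads in KO TDLN 1 under the same name, is 47.9 times smaller. The part of copying errors in these small clonotypes was not tested.

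The second group was smaller and led by the form with threonine at position 5, which took 3.68% of WT tumor 4 and 0.254% of WT TDLN 1 with the same bases. The leucine form stood at 0.650% in KO TDLN 1 alone. The alanine form stood at 0.521% in KO tumor 3 and 0.120% in WT TDLN 3, again with the same bases. The 3 proteins differ at position 5. Their nucleotide sequences share both outer parts and the first of the 4 junction bases, and differ among the rest of the junction.

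Members outside the combination were mostly single clonotypes with 1 library or a pair of libraries each. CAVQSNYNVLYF, with TRAJ21, had 16.2% of WT tumor 3 and 5.20% of KO TDLN 3, with the same bases in 9115 and 2075 reads. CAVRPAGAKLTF, with TRAJ39, had 3.08% of WT TDLN 1 and no read elsewhere. The protein of TRAV3-3 with TRAJ12 printed above had 1.45% of WT TDLN 3 and 0.857% of KO tumor 3. These last libraries also share the alanine form of the second group and differ in genotype, tissue and letter.

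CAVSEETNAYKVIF, with TRAJ30, stood at 2.79% in WT TDLN 4 and 0.671% in WT TDLN 3, and here the 2 libraries had different encodings, as printed above. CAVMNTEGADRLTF, with TRAJ45, had 1.46% of WT TDLN 3, and a clonotype of TRAV3-3 with TRAJ11 had 0.981% of KO TDLN 1. A clonotype with TRAJ5 was carried by the same bases at 0.393% of KO TDLN 2, 0.236% of WT tumor 3 and 0.152% of WT TDLN 4. The protein of TRAJ17 with a TRAV6 segment had 5.22% of KO TDLN 2 and 0.00290% of WT tumor 4.

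In nearly every library 1 clonotype held most member reads. The largest held 59.5% of the member reads in KO tumor 3, the lowest share of the 12 libraries, and 98.7% in KO tumor 2, the highest in a library with more than 1 member read. It was the largest TRA clonotype of the whole library in WT TDLN 3 (12.7%), KO TDLN 1 (25.7%) and KO TDLN 2 (35.0%), and the second largest in WT TDLN 4 (2.74%) and WT tumor 3 (16.1%). In the other tumor libraries of both genotypes the largest member ranked 10 or lower. Its rank was 15 in WT tumor 2, 10 in WT tumor 4, 10 in KO tumor 2 and 11 in KO tumor 3. In KO tumor 1, with 1 member read, it was 85. Without their largest member clonotype, all members together made up 7.51% of KO TDLN 2, 7.09% of KO TDLN 1 and 6.71% of WT TDLN 3, and 2.55% or less elsewhere.

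Small clonotypes were mostly near copies of large ones. Of 833 member clonotypes listed by library, 456 (54.7%) lay 1 base from a clonotype at least 100 times larger, and they held 2.00% of the member reads. Among other clonotypes 49.4% were such variants. Of the member clonotypes, 61.6% were a single read. The length tests, and the counts said above to be filtered or to leave these out, therefore omit both. Other counts keep them, such as the 751 member clonotypes and the numbers of clonotypes shared between libraries.

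The design compares KO with WT in each tissue and tumor with TDLN, and none of the TRAV3 segments, TRAJ17 or their combination was called in any of these comparisons by edgeR's quasi-likelihood test at an adjusted p of 0.05. In tumors, TRAV3-3 was 1.84 lower in KO than in WT on the log2 scale, written -1.84 (SE 2.04, edgeR adjusted p = 0.782). Here and below, the SE is approximate: the size of the log2 difference divided by the square root of the test's F statistic. TRAJ17 differed by -0.18 (SE 2.75, adjusted p = 1) and TRAV3-3 with TRAJ17 by 0.01 (SE 3.63, adjusted p = 1). Without WT tumor 3 the TRAV3-3 difference was 0.40, and without WT tumor 4 the TRAJ17 difference was 0.68. The shares of KO and WT tumor libraries overlapped for all 3. The background was 0% of 47 TRAV segments, 0% of 43 TRAJ segments and 0% of 301 combinations called, and 11, 10 and 5 of them had an unadjusted p under 0.05. DESeq2 called 2 TRAV segments, 3 TRAJ segments and 8 combinations here, and of the features described it called the minor copy TRAV3-1.

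In TDLN, the KO libraries had higher means, with large errors. The log2 difference of KO from WT was 1.57 (SE 2.02, edgeR adjusted p = 0.911) for TRAV3-3, 2.37 (SE 2.89, adjusted p = 0.917) for TRAJ17 and 2.35 (SE 3.81, adjusted p = 0.677) for the combination. Here too 0% of the segments and combinations were called, and 1, 1 and 3 had an unadjusted p under 0.05, while DESeq2 called 1, 2 and 8 others. Without WT TDLN 3 the differences were 2.91 for TRAV3-3, 5.86 for TRAJ17 and 9.24 for the combination. Both KO libraries that were high carry the timed-out mark. Without the 4 marked libraries, which leaves 1 TDLN library per genotype and assumes that it varies like the other groups, the TRAJ17 difference turned to -3.20. Without the largest clonotype of each library the TRAV3-3 difference turned to -0.53.

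Between tissues, over both genotypes, TRAV3-3 was lower in tumor by a log2 difference of -1.93 (SE 1.44, edgeR adjusted p = 0.342). The median over all 47 TRAV segments was -2.51, and 25.5% of them were called, all lower in tumor. TRAJ17 differed by -2.55 (SE 2.06, adjusted p = 0.549), beside a median of -2.03 and 18.6% called among TRAJ segments. The combination differed by -2.53 (SE 2.71, adjusted p = 1.00), beside a median of -4.09 over combinations and 0% called by edgeR, with 25 at an unadjusted p under 0.05 and 23 other combinations called by DESeq2. Without WT TDLN 3 the difference was -0.80 for TRAJ17 and 0.91 for the combination, and without WT tumor 3 it was -3.05 for TRAV3-3. Without the marked libraries the difference turned to 3.46 for TRAJ17 and to 10.52 for the combination, whose 2 remaining TDLN libraries hold 2 reads in all. Within letters, the TRAJ17 share was lower in tumor than in TDLN for 4 letters and higher for D and G, where it rose from 0.505% to 3.71% and from 0.0549% to 2.84%.

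The minor copies were not called by edgeR, while DESeq2 called each of them once. TRAV3-1 differed by -6.73 (SE 3.34) between KO and WT tumors, with an unadjusted p of 0.0448 and an edgeR adjusted p of 0.198, and DESeq2 gave -7.14 (adjusted p = 0.0225). Without WT tumor 4 the edgeR difference was -0.05. Of its level of 0.762% in WT tumor 4, 0.756% is the CDR3 with split naming described above. TRAV3-4 differed by -4.51 (SE 2.31, edgeR adjusted p = 0.140) between tumor and TDLN, where DESeq2 gave -4.31 (adjusted p = 0.0453). The difference between genotypes of the tumor minus TDLN contrast was tested as an interaction, with edgeR adjusted p of 0.552 for TRAV3-3, 0.724 for TRAJ17 and 1.00 for the combination. With 3 libraries against 3, an exact permutation test of the shares cannot go below p = 0.1, and the exact p ranged from 0.2 to 1 for KO against WT. A p above the threshold at this spread does not show that the groups are alike.

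**Figure D5:**
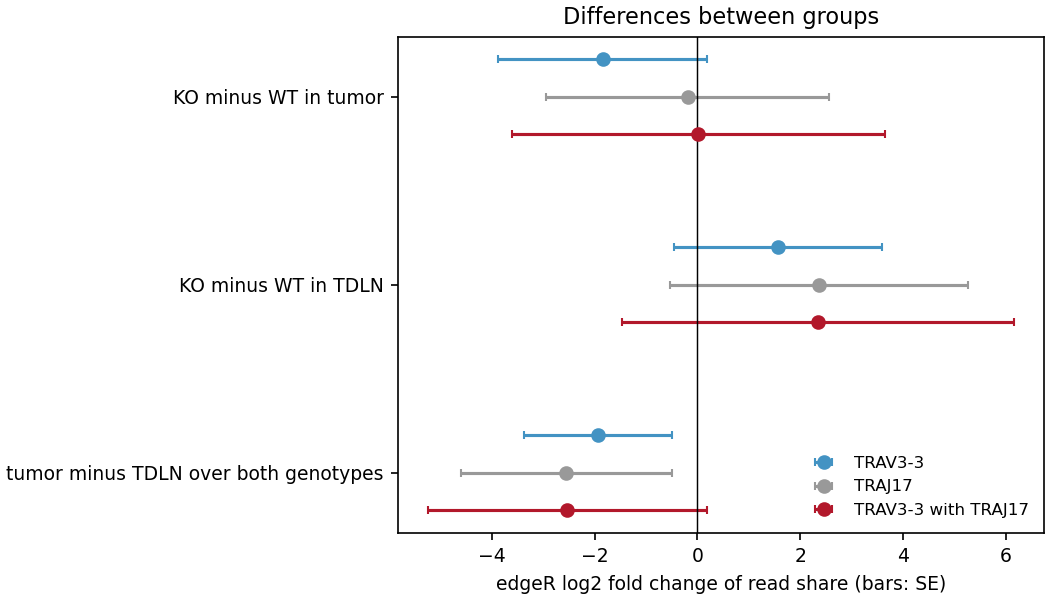
Log2 fold change from edgeR of TRAV3-3, TRAJ17 and TRAV3-3 with TRAJ17 in 3 comparisons (points, bars show 1 approximate SE derived from the F statistic, 12 libraries in the fit). Every interval of 2 SE would cross 0, and the widest bars belong to the combination.

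Over the 12 libraries, the TRAV segments whose shares ranked most like TRAV3-3 were TRAV3-4 (Spearman correlation 0.83), TRAV4-4 (0.75) and TRAV8-1 (0.70). The likeness of TRAV3-4 includes reads of the same CDR3 sequences named differently. For TRAJ17 they were TRAJ58 (0.62), TRAJ56 (0.57) and TRAJ47 (0.42). All shares of a library add to 100%, so these values only describe how ranks run together. TRAJ17 had the fourth highest mean share of the TRAJ segments, 8.17% ± 13.8 (SD, n = 12).

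Members that make no receptor were counted separately, since frame was not used to choose the segments. Of TRAV3 entries, 23.1% ± 13.1 per library were not productive, against 25.1% ± 7.34 of other entries (SD, n = 11 libraries with at least 10 of each), a difference of -2.06 ± 13.8 percentage points (exact two-sided sign-flip permutation test, p = 0.627, adjusted p = 0.627). With TRAJ7 entries left in the frame of the deposited table the difference was -13.2 points (exact p = 0.00293). For TRAJ17 the shares were 19.2% ± 25.1 and 25.8% ± 8.03 (n = 9), a difference of -6.57 ± 28.2 points (exact p = 0.559, adjusted p = 0.627). The TRAJ17 share was lower than that of other entries in 8 of 9 libraries, and WT TDLN 1 was the exception with 83.1% against 17.1%. Without WT TDLN 1 the difference was -15.6 points (exact p = 0.00781). Among TRAV3 entries with TRAJ17, 8.83% were not productive, counted over all libraries. The share was 38.5% of TRAV3 entries with another J segment and 56.1% of TRAJ17 entries with another V segment. Entries here include near copies of large clones, so a few large clones can set these shares. WT TDLN 1 alone gave 49 of the 115 TRAJ17 entries that were not productive.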

How the data were processed

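Per the labels' protocols, polyA RNA was amplified with primers specific for TCR genes, and the genome build is GRCm39, per the submitters' processing notes. Per the file headers, the table is a TRUST4 report of unstated version. It holds the deposited count of reads of each TRA rearrangement in each library. The fraction of the library's TRA total that the authors give beside it was not used further. Molecular identifiers are not described. TRAJ7 entries were read with 1 base restored, a rule chosen after values were seen. WT tumor 2 is numbered 1 in the table and was matched by its library name. Segment names were matched to RefSeq symbols of GRCm38.p6, and no coordinates were used.

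Shares are percent of productive TRA reads. Counts per TRAV, TRAJ and combination with 10 reads in all and 0.1% of a library were tested in edgeR 4.0.16 (R 4.3.3, all 4 groups in the fit, library total as scale), after a test on simulated data. Alternatives used limma 3.58.1 and DESeq2 1.42.0. Single values had exact permutation tests. The junction ends are leading bases at 50% or more of at least 10 rearrangements. Named clonotypes are the 15 with the highest share of any library and the largest of each library, and named partners the 5 with most reads. CDR3 groups came from proteins at 0.1% of a library, and other TRAV3 with TRAJ17 proteins of these groups are named with them. Same-numbered libraries of a genotype did not deviate together (correlations -0.359 to -0.0124), and the main fit did not pair them. These few correlations cannot show whether same-numbered libraries belong together. Members, lists and tests were chosen with earlier results of these data known.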

Additional observations from a re-analysis of the deposited data

Results flagged for a closer look

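Rearrangements of these segments that make no receptor reached 1% of all TRA reads of a library in 6 cases, which lie outside the productive reads that the comparisons use. The largest was TRAV3-3 with TRAJ40, out of frame, at 5.27% of WT TDLN 3. The same nucleotide sequence stood at 2.43% of KO tumor 3, a library of another genotype, tissue and letter, and had no read in the other 10 libraries. It is printed with no junction marked.
TRAV3-3 with TRAJ40, out of frame: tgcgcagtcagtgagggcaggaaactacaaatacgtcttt

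TRAV1 with TRAJ17, out of frame, stood at 3.75% of WT TDLN 1. The same bases had 33 reads in KO tumor 1 and 6 in WT tumor 4. TRAV3-3 with TRAJ7, out of frame, stood at 2.40% of KO tumor 2, where frame depends on the base restored to TRAJ7. Its bases also stood at 0.691% of KO tumor 3, with 1 read in WT tumor 2. TRAV3-3 with TRAJ37 held a stop codon and stood at 1.70% of KO TDLN 1. TRAV3-4 with TRAJ56, out of frame, stood at 1.41% of KO TDLN 2.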

How the results depend on the processing

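Of 258 recomputed values, 232 kept direction and side of the threshold, 23 turned direction and 3 passed the threshold newly. Many of the 232 could hardly change, because leaving out a library outside a contrast keeps its difference. TRAV3-3 between KO and WT tumors, for example, stayed at -1.84 without WT TDLN 1. The count is therefore not a measure of robustness. No group comparison of TRAV3-3, TRAJ17 or their combination was called under any alternative. Log2 differences between KO and WT tumors turned for the combination with TMM scaling (-2.39), DESeq2 (-0.14), limma (-0.23), without clonotypes under 2 or more letters (-0.20) and without the largest clonotypes (-0.090). Leaving out 1 library gave -0.55 to 0.67 for the combination, -2.64 to 0.40 for TRAV3-3 and -0.75 to 0.68 for TRAJ17. With the replicate block the TRAJ17 difference in tumor was 0.69, and the block changed no call of these features. In TDLN these ranges were 1.77 to 9.24, 1.18 to 2.91 and 1.75 to 5.86, each highest without WT TDLN 3. There, TRAV3-3 turned without clonotypes under 2 or more letters (-0.17) and without the largest clonotypes (-0.53), and TRAJ17 without the timed-out libraries (-3.20), an alternative added after the data were seen. Tumor minus TDLN turned without the largest clonotypes for TRAJ17 (0.0017) and the combination (1.80), without the timed-out libraries (3.46 and 10.52), and for the combination without single libraries (-2.86 to 0.91, the highest without WT TDLN 3), with -3.05 to -1.26 for TRAV3-3 and -2.98 to -0.80 for TRAJ17.

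The not productive share of TRAV3 minus other entries was 1.65 points weighted by reads and -13.2 (exact p = 0.00293) where TRAJ7 kept its deposited frame, and for TRAJ17 it was 1.19 without single reads and -15.6 to -3.80 without single libraries. The TRAJ17 length difference was -0.801 weighted by reads (exact p = 0.0156) and 0.0387 with shared clonotypes counted once. TRAV segments called lower in tumor numbered 12, but 2 with TMM scaling and 0 with limma or the replicate block. The causes were not tested.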
